A study of Mus musculus with 16 samples.

Results

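The genes described here are 9 transcription factors of the hepatocyte, Hnf4a, Foxa1, Foxa2, Foxa3, Cebpa, Cebpb, Onecut1, Nr1h4 and Rxra, chosen by name. Earlier results of these data were known when they were chosen, so shares set beside all genes are descriptive. All rows of 8 lists of N6-methyladenosine (m6A) peaks that carried one of these gene names were taken, and a gene with no row counted as having no peak. Of the 9 genes, 5 had a peak, out of 8284 genes with a peak in any list, and they held 38 of 28297 peaks. The lists came from methylated RNA immunoprecipitation sequencing (MeRIP-seq) of liver, in which fragmented RNA is pulled down with an antibody against m6A and sequenced. There were 4 db/db mice, in which loss of the leptin receptor leads to obesity and diabetes, and 4 lean mice of strain C57BL/6, all male. For db/db mice the strain label gives only the mutation, no age was given, and the diet was described only as food at will for all mice. Each list came from 1 mouse.

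Hepatocyte identity rests on a small network of transcription factors that bind each other's genes as well as those of secreted plasma proteins and of metabolic enzymes. HNF4A is a nuclear receptor family member at the centre of this network. The FOXA factors are forkhead proteins that open chromatin in liver development, the C/EBP factors are basic leucine zipper proteins, ONECUT1 (HNF6) has a cut domain and a homeodomain, NR1H4 (FXR) is the bile acid receptor, and RXRA is the retinoid X receptor that pairs with FXR and many other nuclear receptors. On mammalian messenger RNA, m6A is known to be frequent in long exons and around stop codons, and it influences decay and translation of the transcript.

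Lists of db/db mice held 2831 to 4807 peaks and those of lean mice 2475 to 4394. Sequencing depth was unknown. A missing peak can mean no methylation, a transcript too scarce to give a peak, or too few reads, and fewer cells of a type cannot be told apart from less RNA per cell in whole liver. Peak lists give no expression level, so the labelled tissue could not be checked by level. Of 6 hepatocyte markers, 3 had a peak in any mouse (Ttr, Apoa1 and Ass1), while Alb, Serpina1a and Cps1 had none. All 5 stellate cell and all 5 endothelial markers had a peak in at least 1 mouse. So did 4 of 5 Kupffer cell and macrophage markers, 3 of 5 cholangiocyte markers and 1 of 3 lymphocyte markers. No single mouse had a peak in more than 3 stellate cell, 3 endothelial or 2 hepatocyte markers.

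Peaks were found in Cebpb in all 8 mice, in Foxa2 in 4 db/db and 3 lean mice, in Rxra in 3 db/db and 4 lean mice, in Foxa1 in 3 db/db and 2 lean mice, and in Hnf4a in 3 db/db livers and 1 lean liver. No list held a peak of Foxa3, Cebpa, Onecut1 or Nr1h4. Each of the 5 genes with a peak thus had one in 4 or more mice, which was true of 25.3% of all genes with a peak. In 5 or more mice a peak was seen in 4 of them, against 16.7% of all genes, and in 7 or more mice in 3 of them, against 6.88%. Only Cebpb had a peak in every mouse, as did 3.6% of all genes. The median number of mice with a peak was 7 over the 5 genes and 2 over all 8284.

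The 4 db/db mice had peaks in 3, 5, 5 and 4 of these genes, and the 4 lean mice in 3, 5, 2 and 4. The number averaged 4.25 ± 0.957 in db/db livers and 3.5 ± 1.29 in lean livers (SD, n = 4 each), so that the genotypes overlapped. The difference of 0.75 genes was 0.25 without lean mouse 3, 1.17 without db/db mouse 1 and 1.25 without lean mouse 2. Over all 8284 genes the share with a peak was 35.3% ± 5.53 in db/db livers and 30.5% ± 7.60 in lean livers. The members held 6, 6, 7 and 4 peaks in db/db mice and 3, 5, 3 and 4 in lean mice. Per 1000 peaks of the list this came to 1.56 ± 0.555 in db/db livers and 1.24 ± 0.415 in lean livers (SD, n = 4 each), a difference smaller than the SD in either genotype. Peaks of 50 bases or more alone left a difference of 0.75 peaks per mouse in place of 2.

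**Figure D1:**
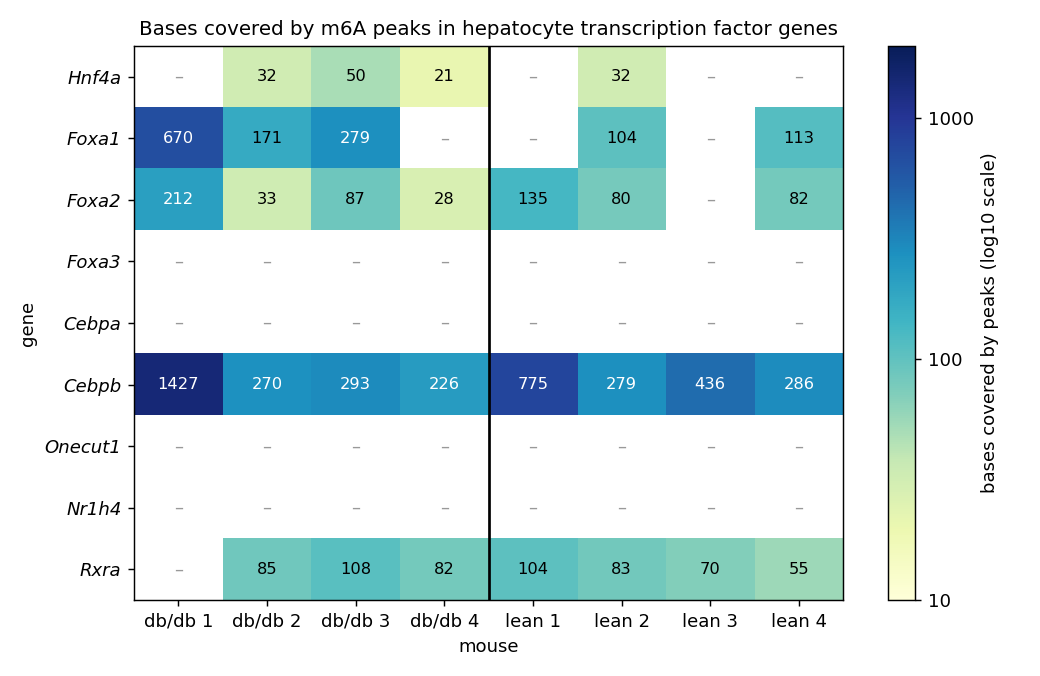
Bases covered by m6A peaks in each of the 9 genes (rows) in each mouse (columns, db/db to the left of lean). Colour shows the covered bases on a log10 scale and a dash marks a gene with no peak. Cebpb is covered in all 8 mice, with 1427 bases in db/db mouse 1, and 4 genes have no peak in any mouse.

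Hnf4a (gene ID 15378) had 1 region, at chromosome 2, 163547187 to 163547236 (mm10), on the plus strand inside the gene bounds of 163506811 to 163572907. The peak covered 32, 50 and 21 bases in db/db mice 2, 3 and 4 and 32 bases in lean mouse 2. No peak was listed in db/db mouse 1 or in the other 3 lean mice. In all 4 mice with a peak it began at the same base. That base is number 33 counted from the second of 2 starts that RefSeq lists for the gene, at 163547155. The peaks of db/db mice 2 and 4 and of lean mouse 2 were among the shortest of their lists, at percentiles 1.55, 1.72 and 2.06 of length. The fold enrichment of the peak, a value of the authors set against the background within that list, was 7.49, 6.88 and 6.80 in the 3 db/db mice and 5.68 in the lean mouse. These folds lay at percentiles 21.7, 24.5, 20.6 and 10.8 of their own lists, so the Hnf4a peaks ranked low by fold in each. By score, which is -10 times the log10 of the p-value of the peak, they ranked higher, at percentiles 84.6, 82.0 and 85.1 in the db/db mice and 77.1 in the lean mouse.

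The RefSeq promoter window (GRCm38.p6, whose coordinates are those of mm10) holds the start of this region. Transcribed bases 21 to 50 are shown because they hold the shared left edge of the Hnf4a peaks, with the bases covered in all 4 mice in capitals, at chr2:163547175-163547204 on the plus strand.
Hnf4a: ggaaggcagagaAGGGACCTGGGAGGAGGC
The covered stretch holds GGACC, whose A is transcribed base 37. GGACC is a form of the core motif in which m6A is usually found, and 2.998% of the 32851 RefSeq promoter windows held it in the same 30 bases. In all, 6 forms were searched, and the shares in these bases ran from 2.64% for AGACC to 3.46% for AGACA. Windows with any of the 6 were not counted, so 2.998% understates how often some searched form is found. Of the other forms searched on the transcribed strand, neither GGACT nor GGACA was in this stretch. The same was true of AGACT, and likewise of AGACA, as well as of AGACC.

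Between the genotypes, 3 of 4 db/db mice and 1 of 4 lean mice had the Hnf4a peak (two-sided Fisher exact p = 0.486, adjusted p = 1 over all 8284 genes). The same split was seen in 191 genes, 2.31% of all. That base includes 3186 genes seen in 1 mouse only, which could not show it. Only 2094 genes had a peak in 4 or more mice, so the share does not make the split rare. Covered bases averaged 25.8 ± 20.9 in db/db livers and 8 ± 16 in lean livers (SD, n = 4 each), a difference within the spread between mice (two-sided exact permutation p = 0.371, adjusted p = 1). With every list limited to its 2475 peaks of highest fold, 1 db/db liver and 0 lean livers kept the Hnf4a peak. With peaks under 50 bases removed the numbers were again 1 and 0.

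Foxa1 (gene ID 15375, minus strand, chromosome 12, 57540628 to 57548029) had 2 regions. The region nearer the start, 57545664 to 57545799, lay at bases 313 to 448 from the single listed start at 57546111. Its peak covered 136, 119 and 91 bases in db/db mice 1, 2 and 3 and 104 and 113 bases in lean mice 2 and 4. Of the 5 peaks, 4 ended on the gene's strand at the same base, 57545664, and all shared 91 bases. The fold was 12.4, 18.3 and 11.6 in the db/db mice and 14.7 and 7.52 in the lean mice.

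The other Foxa1 region, at 57542278 to 57542870, lay 3242 to 3834 bases from the start and had peaks in 3 db/db livers and no lean liver (two-sided Fisher exact p = 0.143, adjusted p = 1 over 17936 regions). Among all regions, 0.396% had a peak in 3 or more db/db livers and no lean liver. Only 23.4% of all regions had a peak in 2 or more mice, so most could not show this pattern. Mouse db/db 1 had 2 peaks there, of 315 and 219 bases, db/db mouse 2 had 1 of 52 bases and db/db mouse 3 had 1 of 188 bases. No base was covered in all 3 mice, and the region was joined through the peaks of db/db mouse 1. Their scores were 146 and 173 in db/db mouse 1, 55.7 in db/db mouse 2 and 127 in db/db mouse 3, against a list minimum of 50. Without db/db mouse 1 the peaks of mice 2 and 3 shared no base. Over the whole gene, peaks covered 280 ± 284 bases in db/db livers and 54.3 ± 62.8 bases in lean livers (SD, n = 4 each, two-sided exact permutation p = 0.171, adjusted p = 1).

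Foxa2 (gene ID 15376, minus strand, chromosome 2, 148042877 to 148046969) had 3 regions. The most frequent, 148045867 to 148045948, had a peak in 4 db/db and 2 lean mice (two-sided Fisher exact p = 0.429, adjusted p = 1). In all 6 mice its upstream edge was base 148045948, which is itself the second of 3 starts that RefSeq lists for the gene in the direction of transcription. Peaks of this region spanned 29, 33, 21 and 28 bases in db/db mice 1 to 4 and 80 and 82 bases in lean mice 2 and 4. The lengths did not overlap between the genotypes, at 27.8 ± 4.99 bases in db/db mice (SD, n = 4) and a mean of 81 in lean mice (n = 2). The two-sided exact permutation p over the 15 assignments was 0.0667, the smallest that 4 against 2 mice allow, and the comparison was chosen after the lengths were seen. Of the 37 regions with 1 peak in each of 4 db/db and 2 lean mice, 21.6% had lengths that did not overlap between the genotypes. Folds of the 4 db/db peaks were 31.8, 32.6, 11.5 and 6.74 and those of the lean peaks 32.7 and 16.8. These placed 3 peaks above percentile 90 of their own list by fold, those of db/db mice 1 and 2 and lean mouse 2. The peak of db/db mouse 4 stood at percentile 20.2, with a score of 50.6 close to the list minimum.

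The first 30 transcribed bases of that start are shown for Foxa2, at chr2:148045919-148045948 on the minus strand, with the 21 bases covered in all 6 mice in capitals.
Foxa2: GGTCGTTTGTTGTGGCTGTTAaattttaaa
None of the 6 motifs named above was in this stretch. The shares of all windows with each motif in their first 30 transcribed bases ran from 2.58% for AGACC to 3.80% for AGACA.

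Of the other Foxa2 regions, 148044123 to 148044307 had peaks of 183 and 66 bases in db/db mice 1 and 3 and none in lean mice (Fisher exact p = 0.429, adjusted p = 1). The last, 148043389 to 148043523, had a peak of 135 bases in lean mouse 1 only. The folds in these regions were 7.01 and 5.74 in the db/db mice and 6.22 in the lean mouse, all below percentile 20 of their lists. Lean mouse 1 thus had a Foxa2 peak at a position where no other mouse had one, and lean mouse 3 had none. Bases covered in Foxa2 averaged 90 ± 85.6 in db/db livers and 74.3 ± 55.7 in lean livers (SD, n = 4 each, two-sided exact permutation p = 0.771, adjusted p = 1). With peaks under 50 bases removed, Foxa2 had a peak in 2 db/db and 3 lean mice, and the direction turned. Foxa3 (gene ID 15377, chromosome 7, 19013283 to 19023539), the third FOXA gene, had no row in any list.

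**Figure D2:**
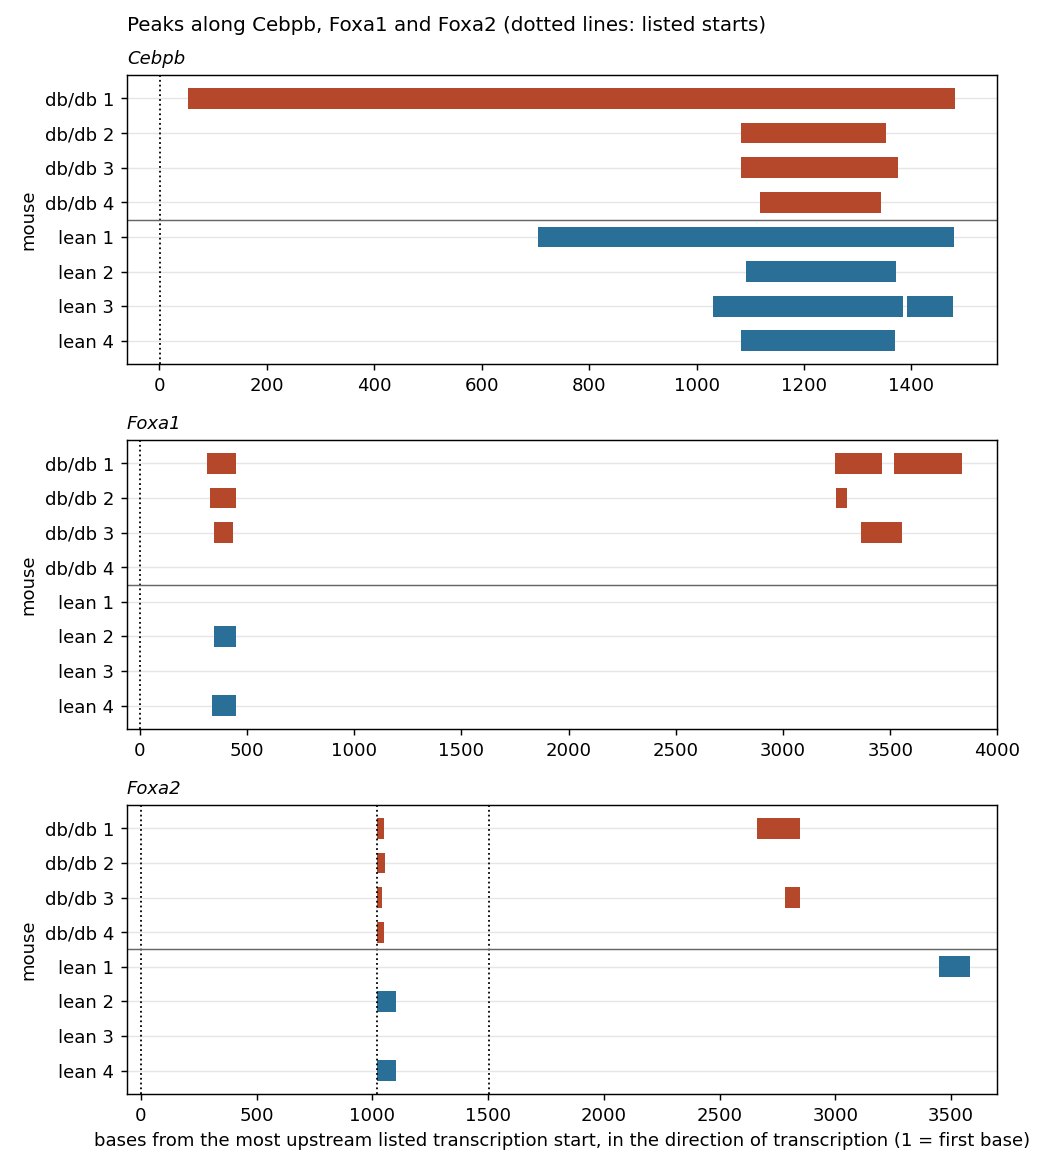
Peaks along Cebpb, Foxa1 and Foxa2 by mouse (rows, db/db above lean), in bases from the most upstream listed start in the direction of transcription, with dotted lines at listed starts. Cebpb peaks of all mice share 226 bases toward the end of the gene, the distal Foxa1 peaks are in db/db mice 1 to 3, and the most frequent Foxa2 peaks begin at the second listed start.

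Cebpb (gene ID 12608, plus strand, chromosome 2, 167688915 to 167690432), an intronless gene whose product takes part in the acute phase response and in gluconeogenesis, had 1 region with a peak in all 8 mice. Among all regions, 1.23% had a peak in every mouse. The region ran from 167688969 to 167690395. All mice shared 226 bases, 167690032 to 167690257, or bases 1118 to 1343 of a gene of 1518 bases. Peak lengths in db/db mice 1 to 4 were 1427, 270, 293 and 226 bases. In lean mice 1, 2 and 4 they were 775, 279 and 286 bases, and lean mouse 3 had 2 peaks, of 352 and 84 bases. In db/db mouse 1 a single peak spanned nearly the whole gene, from base 55 to base 1481. In 5 other mice, db/db 2 and 3 and lean 2, 3 and 4, the main peak began between bases 1032 and 1092. Covered bases averaged 554 ± 583 in db/db livers and 444 ± 232 in lean livers (SD, n = 4 each, two-sided exact permutation p = 0.943, adjusted p = 1).

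The Cebpb peaks ranked high in their own lists. The fold was 27.7, 31.7, 65.0 and 30.4 in db/db mice 1 to 4, at percentiles 92.8, 92.1, 98.1 and 95.1. In lean mice 1 to 3 the fold of the main peak was 34.7, 32.1 and 32.4, at percentiles 96.5, 92.8 and 90.6. Lean mouse 4 stood apart by fold, at 8.53 and percentile 27.3. Its score was 287, at percentile 90.1 of its own list. Scores were 3100 in the 4 db/db mice and lean mice 1 and 2, and 2428 in lean mouse 3. Each list held 51 to 70 peaks with a score of 3100 or more. The peak of lean mouse 4 spanned 286 bases, between the lengths in db/db mice 2 and 3. Folds were not tested between mice, since the background each was set against is not stated and may differ between lists. Cebpa (gene ID 12606, chromosome 7, 35119293 to 35121928), a family member abundant in the resting liver, had no row in any list.

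Rxra (gene ID 20181, plus strand, chromosome 2, 27676445 to 27763319) had 1 region, 27677225 to 27677348, with a peak in 3 db/db and 4 lean mice (two-sided Fisher exact p = 1, adjusted p = 1). Peaks covered 85, 108 and 82 bases in db/db mice 2, 3 and 4 and 104, 83, 70 and 55 bases in lean mice 1 to 4. Mouse db/db 1, which had the longest list of all, had none. The 7 peaks shared 55 bases, 27677245 to 27677299, or bases 45 to 99 from the listed start at 27677201. Their left edges lay within 5 bases in 6 of the 7 mice, between 27677241 and 27677245, and at 27677225 in lean mouse 1. The fold was 17.0, 9.51 and 11.7 in the db/db mice and 23.9, 14.8, 25.1 and 17.6 in the lean mice. Within their lists these stood at percentiles 69.99, 48.0 and 54.7 in db/db mice and 93.3, 68.0, 83.2 and 76.1 in lean mice. Bases covered in Rxra averaged 68.8 ± 47.3 in db/db livers and 78 ± 20.8 in lean livers (SD, n = 4 each, two-sided exact permutation p = 0.857, adjusted p = 1).

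Transcribed bases 21 to 50 of Rxra are shown, at chr2:27677221-27677250 on the plus strand, with the 6 bases covered in all 7 mice in capitals, since they hold the left edges of the peaks.
Rxra: gcgggtgcgcgcgcggggcgcgcgCAGGCA
None of the 6 motifs was in this stretch, and the rest of the Rxra peaks lay outside the promoter window. Nr1h4 (gene ID 20186, chromosome 10, 89454234 to 89533645), the bile acid receptor and a partner of RXRA, and Onecut1 (gene ID 15379, chromosome 9, 74861921 to 74889648) had no row in any list.

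**Figure D3:**
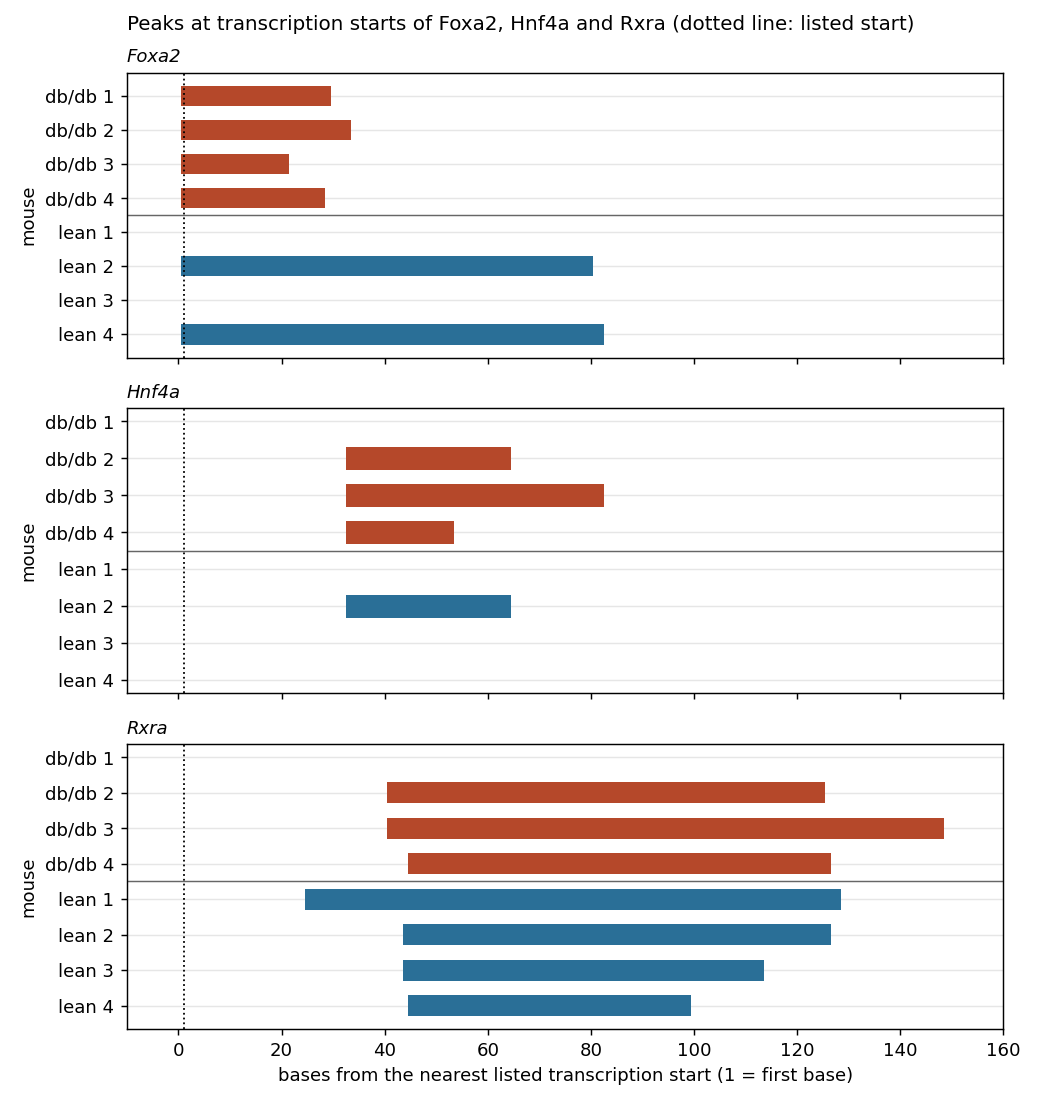
Peaks near a listed start in Foxa2, Hnf4a and Rxra, by mouse (rows, db/db above lean), in bases from that start (dotted line). All 6 Foxa2 peaks begin at the start itself, all 4 Hnf4a peaks begin at base 33, and the Rxra peaks of 6 mice begin between bases 41 and 45.

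Since the genes were chosen with earlier results of these data known, the shares of peaks near listed starts are descriptive and were not tested. Of the 38 peaks in these genes, 18 lay within 100 bases of a start, 47.4%, against 17.6% of the 20594 peaks in all genes with a listed start. By peak, a region is counted again in each mouse that has it. Counted by region the numbers were 4 of 8 regions, against 13.7% of 13217 regions overall. Among the 1011 regions with a peak in 4 or more mice the share was 29.3%. That set is not like the 8, which include regions seen in fewer than 4 mice. The 4 regions near a start were those of Foxa2, Hnf4a, Rxra and Cebpb. The Cebpb region counts only through the long peak of db/db mouse 1. An edge exactly at a listed start was found in 6 peaks, all in Foxa2, and in 3.58% of all peaks. An edge that was the same to the base in every mouse, as in Hnf4a and at the Foxa2 start, was seen in 17.6% of 1263 regions with 1 peak in each of 4 or more mice. The shared Foxa2 edge is a listed start, and so the first base of an annotated transcript. Exon bounds were not used here, so whether the other shared edges coincide with exon ends was not tested.

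The positions recurred between mice. Of the 8 regions, 7 had a peak in 2 or more mice, against 23.4% of all 17936 regions, and 5 had a peak in 4 or more mice, against 7.92%. The exception was the Foxa2 region of lean mouse 1. In 2 regions, the distal one of Foxa1 and that of Foxa2 at 148044123 to 148044307, all mice with a peak were db/db, but the adjusted p was 1 for each. No other annotated gene overlapped any of the 8 regions.

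**Figure D4:**
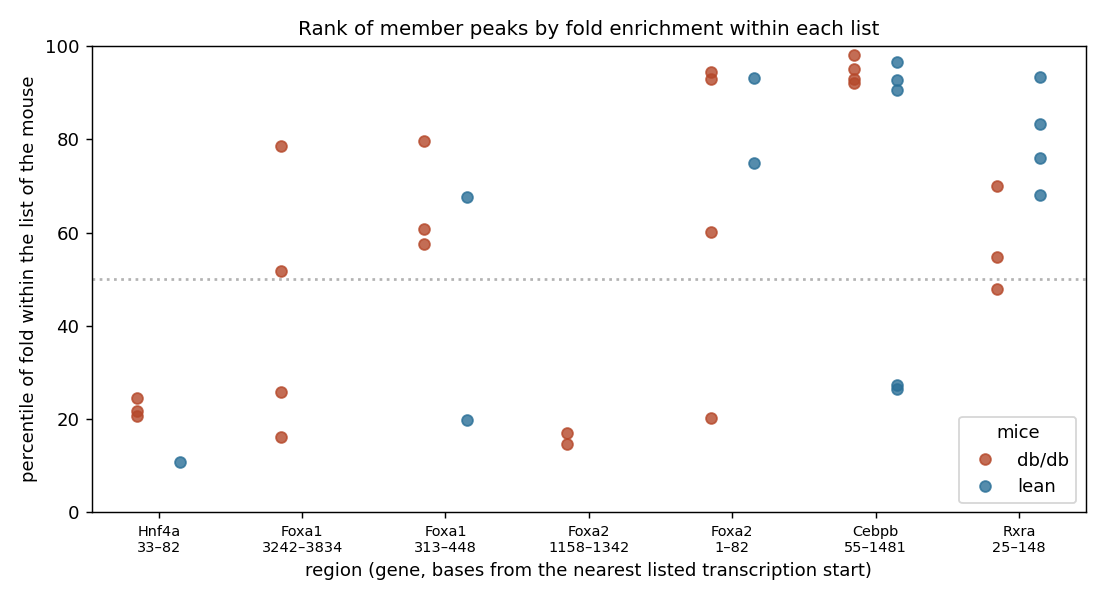
Percentile of the fold of each peak within the list of its mouse, for the 7 regions with a peak in 2 or more mice, named by gene and by bases from the nearest listed start. Each point is 1 peak, db/db to the left of lean. Cebpb peaks lie above percentile 90 except for the low one of lean mouse 4 and the second peak of lean mouse 3, and Hnf4a peaks lie below percentile 25.

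Across all genes, presence of a peak was compared between 4 db/db and 4 lean mice with a two-sided Fisher exact test. No gene passed the adjusted threshold of 0.05 (0% of 8284), 0.338% had an unadjusted p under 0.05, and none of the 5 tested members was among those 28. The smallest p that 4 against 4 mice allow is 0.0286. Adjusted over all genes, that p can pass only if a large share of genes reach it. By number of mice, 3 of the 5 genes with a peak were seen in more db/db mice (Hnf4a, Foxa1 and Foxa2), against 45.3% of all genes. Only Rxra was seen in fewer db/db mice, against 32.3% of all genes, and Cebpb in equally many, against 22.5%. Regions with a peak in more db/db mice numbered 5 of the 8, against 52.6% of all regions, and those in fewer numbered 2, against 38.1%. Mean covered bases were higher in db/db mice in 4 of the 5 genes, Hnf4a, Foxa1, Foxa2 and Cebpb, against 56.8% of all genes. By region, 0% of 17936 passed the adjusted threshold and 30 regions, 0.167%, had an unadjusted p under 0.05, none of them in these genes. Exact permutation tests of the number of peaks and of the bases covered per gene called 0% of genes after adjustment. Without adjustment they called 0.459% and 0.869%, again none of these genes.

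Further genes of the same network had peaks in the following numbers. Of 36 other liver-enriched transcription factors, 25 had a peak in any mouse. Cebpd, a further C/EBP gene, and the forkhead gene Foxp2 had one in all 8. Bcl6, a repressor, was seen in 2 db/db and 4 lean mice, and Dbp, a clock output factor, and Zhx2, a repressor of Afp, in 2 db/db livers and no lean liver (Fisher exact p = 0.429 each, adjusted p = 1). Per mouse, 11.8 ± 4.27 of these factors had a peak in db/db livers and 9.5 ± 1.29 in lean livers (SD, n = 4 each). Cebpd and Foxp2 each had a region with a peak in 7 mice, at chromosome 16, 15888079 to 15888464, and at chromosome 6, 15437891 to 15438143. 

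Of 32 other nuclear receptors 21 had a peak, none in all 8 mice. Nr2f2 (COUP-TFII) was seen in 2 db/db and 4 lean mice, the retinoic acid receptor Rara in 4 db/db and 2 lean mice, and Esrra in 2 db/db livers and no lean liver (adjusted Fisher exact p = 1 for each). Nuclear receptors with a peak numbered 6.75 ± 1.26 in db/db livers and 5 ± 3.16 in lean livers (SD, n = 4 each).

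Coregulators of these factors had peaks in 19 of 22 genes. The corepressor gene Nrip1 had a peak in all 8 mice and the histone methyltransferase gene Kmt2d in 4 db/db and 3 lean mice. For Crebbp, a histone acetyltransferase gene, the numbers were 3 db/db livers and no lean liver (Fisher exact p = 0.143, adjusted p = 1), but no region of it had a peak in more than 1 mouse. Ncoa3 had a peak in 2 db/db livers and no lean liver, and Ppargc1a, a coactivator of HNF4A, in 1 db/db mouse and 3 lean mice. Nrip1 had a region with a peak in all 8 mice, at chromosome 16, 76294302 to 76294590.

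Among 46 hepatocyte genes that these factors are known to drive, 14 had a peak. That is 30.4% of the list, against 69.4% of the liver-enriched factors, 65.6% of the nuclear receptors and 86.4% of the coregulators. For the 9 members the share was 55.6%. The share over all annotated genes was not counted, and the differences between lists were not tested. Of the 14, 1, the coagulation factor gene F9, was seen in 4 or more mice. F9 was seen in 3 db/db and 4 lean mice, in 1 region at chromosome X, 59999464 to 59999551. Afp, the fetal counterpart of albumin, had a peak in 3 db/db livers and no lean liver, each at another position (Fisher exact p = 0.143, adjusted p = 1). Ttr was seen in no db/db mouse and 2 lean mice, and Abcb4, a phospholipid transporter of bile, in 2 db/db livers and 1 lean liver. In none of the 4 lists did any gene pass the adjusted threshold or have an unadjusted p under 0.05.

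Genes with a peak in exactly the same mice were counted for each of the 5 genes. Cebpb shared its pattern with 297 other genes, 3.59% of all others, among them Cebpd and Foxp2 of the further lists. Foxa2 and Rxra each shared theirs with 33 genes, and F9 was the only further-list gene with the pattern of Rxra. Hnf4a and Foxa1 shared theirs with 6 genes each, none of them in the further lists.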

How the data were processed

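MeRIP-seq peak lists of 8 mouse livers were analysed, and the 8 input libraries were not. Groups and mouse numbers came from the sample titles, whose numbers were read as separate mice. If they were not, the p-values cover only the spread between these samples. The sheet name of a list, which opens the title of 1 immunoprecipitated library, gave its mouse. Nothing in the labels says how the RNA of the mice was handled in batches. Peak names begin with MACS, per the file headers. Per the submitters' processing notes, cutadapt 1.9.3, HISAT2 2.0.4 and build mm10 were used. Which version called the peaks, and whether the input entered, is not given in the sources used here. As a ratio, the fold enrichment was deposited by the authors. The deposited score is -10 times the log10 of the p-value and is repeated in a further column of each list, which was not used. The smallest score was 50 and the smallest fold 2.35. Peak length in bases, the other deposited value, is the end minus the start of a peak. With no counts, depth and its error are unknown.

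Starts were converted to count from 1. Peaks of a gene name that shared at least 1 base were joined into regions. Presence of a peak was tested with Fisher's exact test over all 8284 genes and 17936 regions, and peaks and covered bases per gene with exact permutation over the 70 assignments of mice, with Benjamini-Hochberg adjustment over all features (Python 3.11.15, SciPy 1.17.1). Percentiles are the rank of a peak within its own list. Transcription starts were taken from promoter windows of RefSeq (GRCm38.p6), 250 bases before to 50 after a start, which cover 6136 of the 8284 gene names and all 9 members. The planned motif search was run only in those windows, since no other genome sequence was used. The functions were tested on simulated data. The members and the further lists of 136 genes were chosen with earlier results of these data known. Named genes of those lists were, per list, the 2 in each direction that differed most between the genotypes, by 2 mice or more, and the 3 seen in most mice. Some genes that this rule takes are not reported here. Up to 3 genes with a peak in the same mice as a member were also named, by symbol. Alternatives were a fold of at least 4.7, a p of at most 1e-10, lists of equal length, a length of at least 50 bases, matching by gene ID, other rules for joining peaks, leaving out each mouse and a replicate block.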

Additional observations from a re-analysis of the deposited data

Results flagged for a closer look

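Among 16 sets of 4 values, 3 had a mouse well apart from its group, where chance gives about 1 in 20. The bases covered in Cebpb were 1427 in db/db mouse 1, against 226 to 293 in the other db/db mice. The bases covered in all members were 1014 in lean mouse 1, of which 775 were in Cebpb, against 506 to 578 in the other lean mice. Hnf4a was covered over 32 bases in lean mouse 2 and had no peak in the other lean mice, so that any value there would stand apart.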

How the results depend on the processing

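Of 153 recomputed values, 151 were not called changed. They did not turn to the opposite direction or cross the threshold, stayed within the spread between mice or, for counts, changed by no more than a set ratio. A difference that fell to 0 was not called changed. This was so for Rxra without db/db mouse 1 and for Foxa2 without lean mouse 3. With peaks under 50 bases removed, the difference in peaks per mouse in these genes, db/db minus lean, was 0.75 in place of 2, and for Foxa2 the share of db/db mice with a peak minus that of lean mice was -25 percentage points in place of 25. That setting removes all 4 db/db peaks at the Foxa2 start, which span 21 to 33 bases. The number of genes or regions past the adjusted threshold was 0 under every alternative run. With so few mice the adjusted tests could hardly make a call. These counts are among the 151 and are no sign of stability. Leaving out each mouse gave differences of 0.25 to 1.25 genes and 1.58 to 2.58 peaks per mouse, and 5 to 7 regions with a peak in 2 or more mice. With the mouse number as a replicate block the differences were again 0.75 genes and 2 peaks. No call was made, but pairing these mice by number allows no p under 0.05. The labels do not say that a number marks a shared litter or day, and the correlation of same-numbered mice lay between -0.0280 and 0.00877. A motif search over whole peaks was not run.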
